A study of Mus musculus with 13 samples.

Results

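Complex I, the NADH:ubiquinone oxidoreductase of the mitochondrial inner membrane, is built from subunits of both genomes. The nuclear subunits and several of the factors that help to assemble them carry symbols starting with Nduf. All protein-coding genes with such a symbol were taken from the table of read counts, after its Ensembl identifiers had been joined to gene symbols without their version number. This gave 46 Nduf genes among 47937 genes. By role, 7 encode core subunits, 10 accessory subunits of the matrix arm, 19 accessory subunits of the membrane arm and 8 assembly factors (Ndufaf1 to Ndufaf8), and 2 are the paralogs Ndufa4 and Ndufa4l2. The 7 mtDNA-encoded subunits, the mt-Nd genes, were set beside them. The gene for subunit B1 was not analysed here.

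RNA had been sequenced from DN3 and DN4 thymocytes, the CD4-CD8- stages on either side of β-selection, sorted from C57BL/6 mice aged 6 weeks. Wt mice were WT;Lck-Cre+ and the mice labelled KO were Opa1fl/fl;Lck-Cre+. Both genotypes thus carried Lck-Cre, a recombinase driven by the promoter of a T-lineage kinase, and the Wt mice were littermates expressing it alone. The 13 libraries came from 7 mice. DN3 and DN4 libraries came from Wt mice WT05, WT46 and WT48 and from KO-labelled mice KO45, KO49 and KO51, while for Wt mouse WT40 a DN4 library alone was present, so the groups held 3 DN3 Wt, 4 DN4 Wt, 3 DN3 KO-labelled and 3 DN4 KO-labelled libraries.

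In complex I, the matrix arm takes electrons from NADH and passes them along iron-sulfur clusters to ubiquinone, and the membrane arm pumps protons. The core subunits of the matrix arm are nuclear and those of the membrane arm are mtDNA-encoded. Accessory subunits surround the core, and assembly factors join the modules without staying in the finished enzyme. Thymocytes leave DN3 once a T-cell receptor β chain has been made, and then divide rapidly. Opa1 is the inner membrane GTPase that shapes cristae.

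Libraries held 5926848 to 14148661 counts, and Nduf genes together held 8018 to 41199 of them. The DN3 library of WT05 stood apart. In it 34.3% of counts fell on rRNA-like genes, against 0.350 to 1.44% in the other 12 libraries, and it was the shallowest. Il2ra, which marks DN3, was at 936 ± 308 CPM (counts scaled to a common library size) in DN3 Wt (SD, n = 3) and 11.4 ± 2.42 in DN4 Wt (SD, n = 4), and at 1134 ± 276 and 17.8 ± 6.59 CPM in DN3 and DN4 KO-labelled libraries (SD, n = 3 each). All 6 DN3 markers summed to 2027 to 2828 CPM in DN3 and 441 to 1836 CPM in DN4, the highest DN4 library being that of KO45. Of the 6, Rag1, which cuts receptor genes for rearrangement, was at 1588 CPM there, above its 605 to 1005 CPM in DN3 libraries, and the other 5 summed to 247 CPM there and to at least 1390.4 CPM in DN3. The 7 markers that follow β-selection summed to 141 to 254 CPM in DN3 and 632 to 3390.2 CPM in DN4, again highest in KO45. Without the DN4 library of KO45, 0 Nduf genes were called by stage in KO-labelled mice and their median log2 change was -0.03, while that of the mt-Nd genes was -0.77. Opa1 was at 98.1 ± 11.7 and 90.5 ± 2.79 CPM in DN3 Wt and DN3 KO-labelled libraries (SD, n = 3 each) and at 88.9 ± 3.92 and 82.0 ± 5.51 CPM in DN4 (SD, n = 4 and 3). Its adjusted p was 0.94 for the genotypes in DN4 by edgeR. These counts cover the whole gene, including exons outside a floxed part, so they do not check the genotype, and the mice are called KO-labelled here. The 8 B-cell markers summed to 942 to 5761 CPM in DN4 libraries and 286 to 429 CPM in DN3 libraries. The part of this in the stage comparisons was not tested.

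RefSeq start sites on GRCm38.p6 gave promoters, here 250 bases before to 50 after the start, for 40 of the 46 Nduf genes. Letters of 9 motifs were searched. The 8 bases CGCATGCG, the palindromic core bound by NRF1, a regulator of genes for respiration, were found in 4 of these 40 promoters, against 4.48% of the promoters of all genes tested and 2.07% of all promoters. The 4 genes were Ndufa8, Ndufa11, Ndufaf4 and Ndufaf5. The YY1 letters AAGATGG were in 8 Nduf promoters, 8.58% of those of tested genes and 7.28% of all. The letters CCGGAAG of ETS factors were in 6 of the 40, 21.0% and 9.93%, and the Sp1 box GGGCGG was in 52.5%, 68.0% and 38.2%. The cyclic AMP response element TGACGTCA was in 3 of the 40, 3.63% and 2.03%. The E-box CACGTG was in 2 of the 40, 11.9% and 8.09%, CCAAT was in 14 of the 40, 43.0% and 41.1%, TATAAA was in 4 of the 40, 8.28% and 15.7%, and TCAAGGTCA, bound by estrogen-related receptors, was in 0 of the 40, 0.342% and 0.466%. Both strands were read, overlaps between motifs were allowed, and a match of letters is not a binding site. The promoter of Ndufaf4 is shown because Ndufaf4 was the member called in both stage comparisons. The 250 bases before its start (chr4:24897833-24898082, + strand) are printed 5′ to 3′, and the capitals mark the NRF1 core and then 2 overlapping Sp1 boxes.
Ndufaf4: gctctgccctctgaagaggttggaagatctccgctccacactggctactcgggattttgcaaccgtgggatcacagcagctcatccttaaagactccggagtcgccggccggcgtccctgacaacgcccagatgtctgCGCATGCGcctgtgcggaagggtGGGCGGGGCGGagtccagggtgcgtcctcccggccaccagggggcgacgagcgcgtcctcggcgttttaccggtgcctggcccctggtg

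Many Nduf genes lie head to head with a neighbour. In GENCODE M21 on GRCm38, 21 of the 46 (45.7%) had the start of a protein-coding gene of the opposite strand within 1000 bases, against 17.2% of the protein-coding genes tested and 10.8% of all protein-coding genes. Ndufa7 started 10 bases from Rps28, which encodes a cytosolic ribosomal protein, and Ndufb9 started 18 bases from Tatdn1. The start of Ndufs6 lay within Mrpl36, a gene of the mitochondrial ribosome, so that the pair overlapped at their starts. Positions are a description of the annotation and no readout was taken from the neighbours.

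Median levels per length were far lower in the assembly factors than in the core and accessory subunits, a wider gap than any between groups of libraries. Each gene's CPM was divided by the length of its principal transcript in kb, and the mean over all 13 libraries was used. The 7 nuclear core subunits had a median of 68.1 CPM per kb, with 48.5 for Ndufs1 at their lower end. The 10 matrix-arm accessory subunits had a median of 57.5 and ranged from 23.4 for Ndufab1, the mitochondrial acyl carrier protein, to 121 for Ndufa7. The 19 membrane-arm accessory subunits had a median of 78.6, and at their upper end stood Ndufb7 with 131 CPM per kb. The 8 assembly factors had a median of 13 CPM per kb, and their whole range, 9.99 for Ndufaf6 to 18.3 for Ndufaf2, lay below every core subunit. Ndufa4, named for complex I and known as a subunit of cytochrome c oxidase, had the highest level with 208 CPM per kb.

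Members of a role did not all share its level. Ndufb2, a membrane-arm subunit, had the lowest level of all 45 genes with counts, 5.48 CPM per kb, but its principal transcript is annotated with 4371 bases and the level depends on that length. Ndufb4, with 10.9 CPM per kb, shares 18.3% of its stretches of 50 bases with other genes, foremost Ndufb4c, so part of its reads may have been assigned elsewhere or dropped. Ndufaf2 shares 64.1% with other genes, most of it with the antisense gene B230220B15Rik, and its level is therefore uncertain. The same holds for Ndufb6 (31.6%, Smim27), Ndufa13 (28.5%, Tssk6) and Ndufs5 (21.7%, BC002163). No stretch of Ndufaf4 or of the X-linked Ndufa1 was shared. Ndufa4l2, the paralog of Ndufa4 known for induction by hypoxia, had 0 counts in all 13 libraries, which allows up to 3 counts in each.

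The order of the 45 levels was nearly the same in every group. Between DN3 and DN4 the Spearman correlation of the group means across these 45 genes was 0.979 in Wt and 0.986 in KO-labelled mice. Between the genotypes it was 0.987 in DN3 and 0.996 in DN4. These are correlations across genes of the same libraries, which share length and base composition, and they are given as a description. Differences between neighbours in the order, such as Ndufs8, Ndufv1 and Ndufs3 with 83.0, 73.3 and 68.1 CPM per kb, were not tested.

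**Figure D1:**
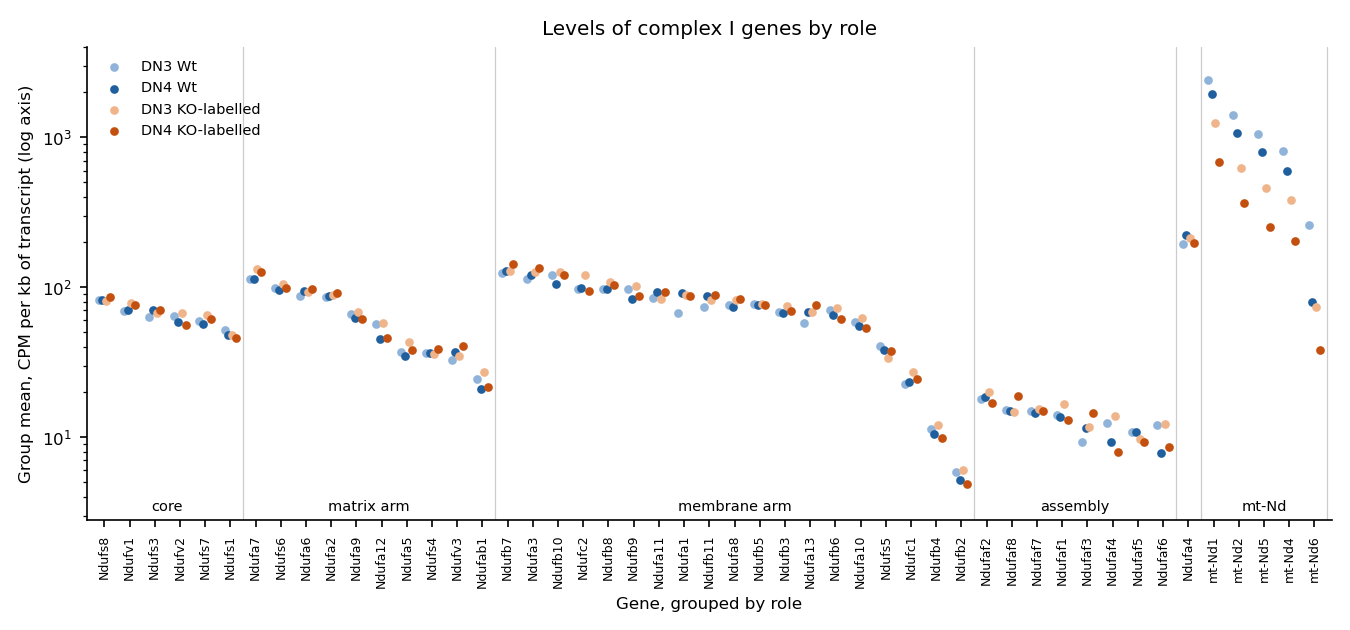
Levels of Nduf genes by role and of 5 mt-Nd genes. Each point is a group mean in CPM per kb of transcript (log axis), coloured by stage and genotype label. The assembly factors lie between 7.87 and 20.1 CPM per kb in each group and the core subunits at 46.1 or more. The mt-Nd genes lie far apart by group, but their DN3 Wt means rest largely on the DN3 library of WT05. For mt-Nd1 the DN3 Wt mean was 2323 CPM with that library and 1480 CPM without it. The mean was 1868 CPM in DN4 Wt and 1188 CPM in DN3 KO-labelled libraries.

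Most of the 7 nuclear core subunits carry the flavin or iron-sulfur clusters or form the site where ubiquinone binds. In the values below, mice are in the order WT05, WT46 and WT48 for DN3 Wt, WT05, WT40, WT46 and WT48 for DN4 Wt, and KO45, KO49 and KO51 for both KO-labelled groups. Ndufv1 holds the NADH site and the flavin. Its CPM were 99.4, 129 and 119 in DN3 Wt, 114, 119, 124 and 110.2 in DN4 Wt, 124, 133 and 134 in DN3 KO-labelled and 109.9, 126 and 141 in DN4 KO-labelled libraries. The groups overlapped in each comparison. Ndufs1, which carries several iron-sulfur clusters, was at 149.6, 134 and 133 CPM in DN3 Wt and 127, 134, 130.4 and 119.8 in DN4 Wt. In KO-labelled mice it was at 129.5, 125 and 129 CPM in DN3 and 113, 125 and 129.8 in DN4. The DN3 KO-labelled values, 128 ± 2.26 CPM, were all below the DN3 Wt values, 139 ± 9.17 CPM (SD, n = 3 each). This was the member whose genotype groups did not overlap in DN3, and its log2 difference was -0.13 (SE 0.12, adjusted p 1.0, edgeR), or 0.14 when libraries were scaled by their totals.

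Ndufv2, with an iron-sulfur cluster beside the flavin, was at 95.8, 115 and 118 CPM in DN3 Wt and 100.2, 102, 106 and 91.4 in DN4 Wt. In KO-labelled mice it was at 101, 131 and 110.0 CPM in DN3 and 85.4, 100.4 and 97.6 in DN4. Each KO-labelled mouse had less in DN4, and the stages did not overlap there. The log2 difference was -0.29 (SE 0.13, adjusted p 0.15, edgeR) and passed with the mouse as a replicate block (adjusted p 0.025).

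Ndufs3, needed early in the assembly of the matrix arm, was at 59.0, 68.8 and 69.9 CPM in DN3 Wt, 77.1, 76.0, 74.4 and 65.8 in DN4 Wt, 65.9, 72.4 and 74.5 in DN3 KO-labelled and 71.1, 74.8 and 76.4 in DN4 KO-labelled libraries. Ndufs8, which holds a pair of iron-sulfur clusters, was at 68.4, 91.2 and 89.7 CPM in DN3 Wt, 75.2, 82.8, 88.3 and 84.2 in DN4 Wt, 73.1, 85.6 and 86.8 in DN3 KO-labelled and 78.2, 87.9 and 92.7 in DN4 KO-labelled libraries. Ndufs7, which carries the last cluster before ubiquinone, was at 36.5, 69.1 and 69.6 CPM in DN3 Wt, 49.7, 53.4, 59.0 and 62.1 in DN4 Wt, 61.7, 67.2 and 62.4 in DN3 KO-labelled and 48.8, 64.9 and 67.5 in DN4 KO-labelled libraries. In each of the 4 comparisons the groups overlapped for these 3 genes, and in each gene the lowest DN3 Wt value was that of WT05. By edgeR without the block, none of the 7 core subunits was called in any of the 4 comparisons or in the interaction.

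**Figure D2:**
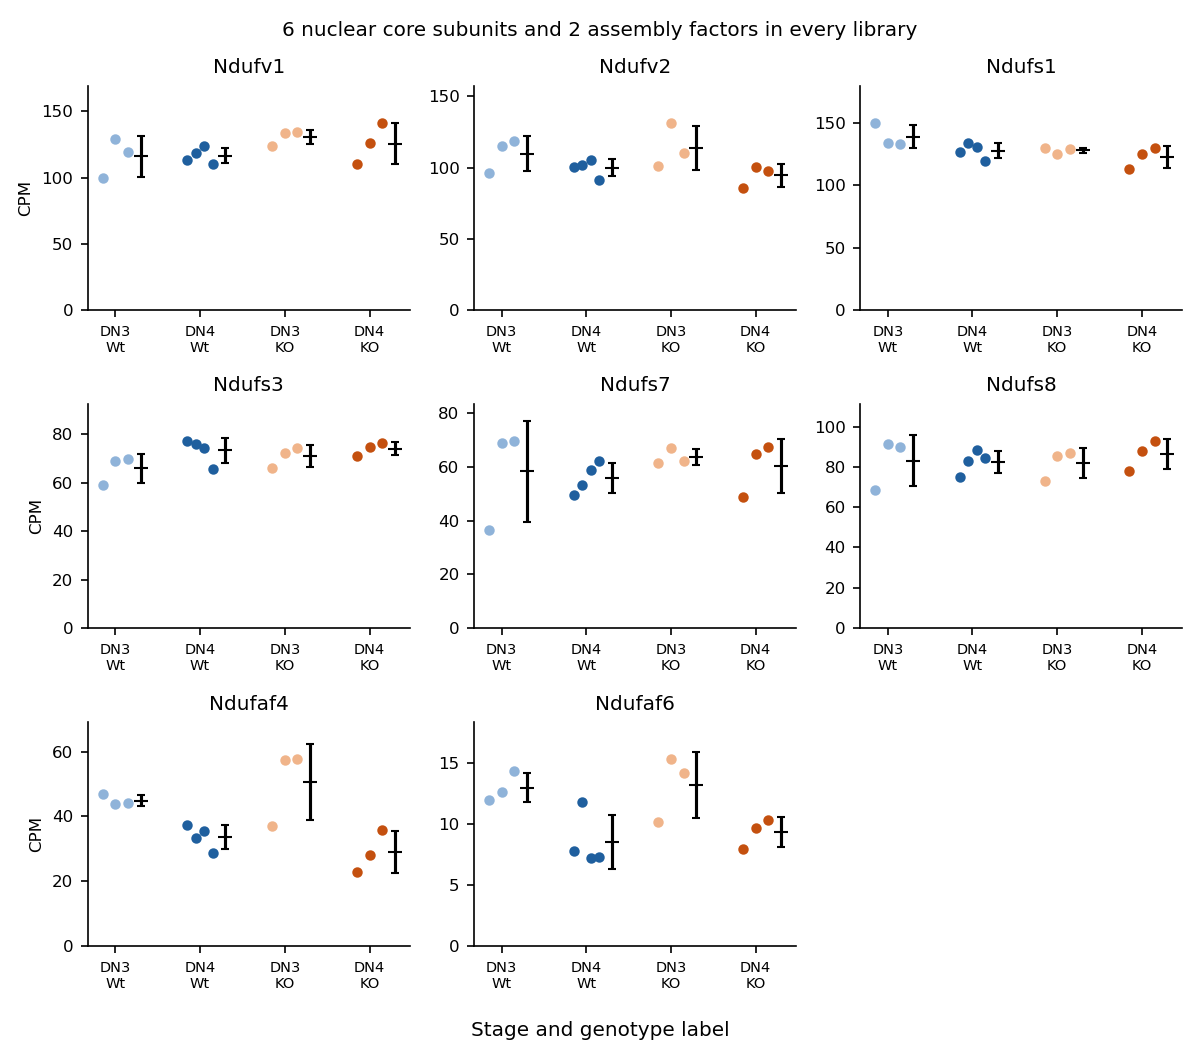
CPM of 6 nuclear core subunits and of the assembly factors Ndufaf4 and Ndufaf6. Points are libraries, from left to right in the order of the mouse numbers, and bars give the mean ± SD of 3 libraries, or of 4 in DN4 Wt. Core subunits overlap between most groups, while Ndufaf4 is lower in DN4 than in DN3 in both genotypes.

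From DN3 to DN4 in Wt mice, 0 of the 45 Nduf genes tested were called higher and 1, Ndufaf4, was called lower. Calls rest on the quasi-likelihood test of edgeR over all genes, with adjusted p below 0.05. The background was 13.4% of all 12691 genes tested called higher and 9.43% called lower. The median log2 fold change was -0.04 over the 45 genes and -0.03 over all genes. Of the members 34 were below 0, 11 above and 4 at an unadjusted p under 0.05 by edgeR. Of all 12691 genes, 6693 were below 0 and 4509 were at an unadjusted p under 0.05. By role the medians were -0.04 for the core, -0.06 for the matrix-arm and -0.04 for the membrane-arm accessory subunits, and -0.08 for the assembly factors, and without the DN3 library of WT05 they were -0.13, -0.23, -0.14 and -0.22. Groups of libraries did not overlap for 4 of the 45 members (8.89%), against 35.0% of all genes tested. In bulk libraries, fewer cells of a type and less RNA per cell cannot be told apart.

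In KO-labelled mice the count was the same, 0 higher and 1 lower, and the member was again Ndufaf4, against 11.2% of 12580 genes called higher and 7.34% called lower. The median log2 fold change was -0.09 over the members and -0.02 over all genes. It was -0.08 for the core, -0.10 for the matrix-arm and -0.09 for the membrane-arm accessory subunits and -0.18 for the assembly factors. Groups did not overlap for 8 members (17.8%), 3 lower and 5 higher in DN4, against 38.7% of all genes tested. Those higher included Ndufs4, Ndufv3, Ndufaf3 and Ndufaf8.

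Ndufaf4 works early in the assembly of the matrix arm, together with Ndufaf3. It lies on chr4:24898083-24905001 (GRCm38, + strand). Its CPM were 46.8, 43.7 and 44.0 in DN3 Wt and 37.3, 33.2, 35.5 and 28.7 in DN4 Wt. In KO-labelled mice they were 36.9, 57.3 and 57.6 in DN3 and 22.9, 28.2 and 35.8 in DN4. All DN4 libraries were below all DN3 libraries of the same genotype, and each of the 6 mice with both stages had less in DN4, by 0.30 to 1.02 on the log2 scale. The fitted log2 change was -0.44 in Wt (SE 0.12, adjusted p 0.037), a fold of 0.740, and -0.82 in KO-labelled mice (SE 0.22, adjusted p 0.035), a fold of 0.565, by edgeR. The interaction of stage and genotype was -0.40 (95% interval -0.96 to 0.17, adjusted p 1.0, edgeR), so a larger change in KO-labelled mice was not shown.

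The call of Ndufaf4 in Wt mice sat close to the threshold, with adjusted p of 0.020 by DESeq2 and 0.040 by limma-voom. Without any of the 7 libraries in turn its adjusted p by edgeR was between 0.053 and 0.090. With the mouse as a replicate block, which also left out WT40, it was 0.10. In KO-labelled mice its adjusted p with the block was 0.00055. It was 0.088 to 0.115 when KO49 or KO51 was left out of DN3 or KO45 or KO49 out of DN4. The log2 change stayed between -1.02 and -0.71 in these fits.

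Ndufaf6, an assembly factor related to squalene and phytoene synthases, had the lowest fitted change in Wt mice without being called. Its CPM were 12.0, 12.6 and 14.3 in DN3 Wt and 7.82, 11.8, 7.17 and 7.29 in DN4 Wt, WT40 being the high DN4 library. In KO-labelled mice they were 10.1, 15.3 and 14.2 in DN3 and 7.94, 9.67 and 10.3 in DN4. The Wt stages did not overlap, by a narrow gap between WT05 and WT40, and the KO-labelled stages overlapped. The log2 change was -0.64 in Wt (SE 0.22, adjusted p 0.074, edgeR) and -0.52 in KO-labelled mice (SE 0.22, adjusted p 0.15, edgeR). With the replicate block both passed, with adjusted p of 0.047 and 0.0496 by edgeR. The Wt fit with the block also lacked WT40, and its log2 change was -0.83. Leaving out WT40 without the block gave an adjusted p of 0.025 (edgeR) in Wt, so these passes are not separate.

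Ndufab1 and Ndufa12, both of the matrix arm, were not called in Wt mice. Ndufab1 was at 79.2, 89.3 and 87.3 CPM in DN3 Wt and 66.3, 77.2, 78.8 and 67.5 in DN4 Wt, without overlap and with a log2 difference of -0.26 (SE 0.11, adjusted p 0.12, edgeR). Ndufa12, an accessory subunit near the NADH end of the arm, overlapped between the stages and had a log2 difference of -0.38 (SE 0.16, adjusted p 0.13, edgeR).

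With the mouse as a replicate block, 7 members were called lower in DN4 of KO-labelled mice, against 16.9% of all genes called lower in the same fit. They were Ndufaf4, Ndufaf6, the core subunit Ndufv2, the matrix-arm subunits Ndufa12 and Ndufab1, and the membrane-arm subunits Ndufa10 and Ndufc2. Their log2 changes ran from -0.82 for Ndufaf4 to -0.25 for Ndufa10. The share of members called, 7 of 45, was near that background. In Wt mice the fit with the block also lacked WT40, which had no DN3 library. There 1 member was called lower, Ndufaf6 in place of Ndufaf4, against 6.53% of all genes called lower. The parts of the block and of WT40 in this were not separated.

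Levels in the DN3 library of WT05 differed from the other DN3 Wt libraries by transcript length. Across 10783 protein-coding genes its log2 CPM (with 0.5 CPM added) minus the mean of the other DN3 Wt libraries had a median of -0.40 for transcripts under 1 kb, -0.29 for 1 to 2 kb, -0.07 for 2 to 4 kb and 0.35 for 4 kb or more. The 45 Nduf genes, with a median transcript length of 983 bases, had a median of -0.32, and 42 of them were lower. The median was -0.39 for the 23 under 1 kb and -0.24 for the 22 of 1 kb or more, and the part of length in these values was not tested. Ndufa6, at 27.8 CPM in this library and 66.0 and 61.4 in the others, and Ndufa1 were among the farthest. Without this library the median log2 change of the 45 genes from DN3 to DN4 was -0.16. Then 39 members were below 0, and 2, Ndufb9 (-0.37, SE 0.09, adjusted p 0.027, edgeR) and Ndufb10 (-0.34, SE 0.10, adjusted p 0.041, edgeR), both of the membrane arm, were called lower, against 11.4% of all genes called lower.

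The X-linked members were Ndufa1 and Ndufb11, both small subunits of the membrane arm. Ndufa1 was at 16.9, 33.6 and 34.1 CPM in DN3 Wt and 39.8, 36.2, 40.3 and 37.7 in DN4 Wt. In KO-labelled mice it was at 31.2, 44.8 and 35.5 CPM in DN3 and 29.8, 41.7 and 38.9 in DN4. The Wt stages did not overlap, with a log2 difference of 0.40 (SE 0.22, adjusted p 0.24, edgeR) that was 0.15 without the DN3 library of WT05. Ndufb11 was at 53.8, 75.6 and 71.6 CPM in DN3 Wt, 87.1, 73.9, 85.7 and 72.5 in DN4 Wt, 67.6, 74.6 and 80.1 in DN3 KO-labelled and 78.7, 79.1 and 84.2 in DN4 KO-labelled libraries. The groups overlapped in each of the 4 comparisons and it was not called.

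**Figure D3:**
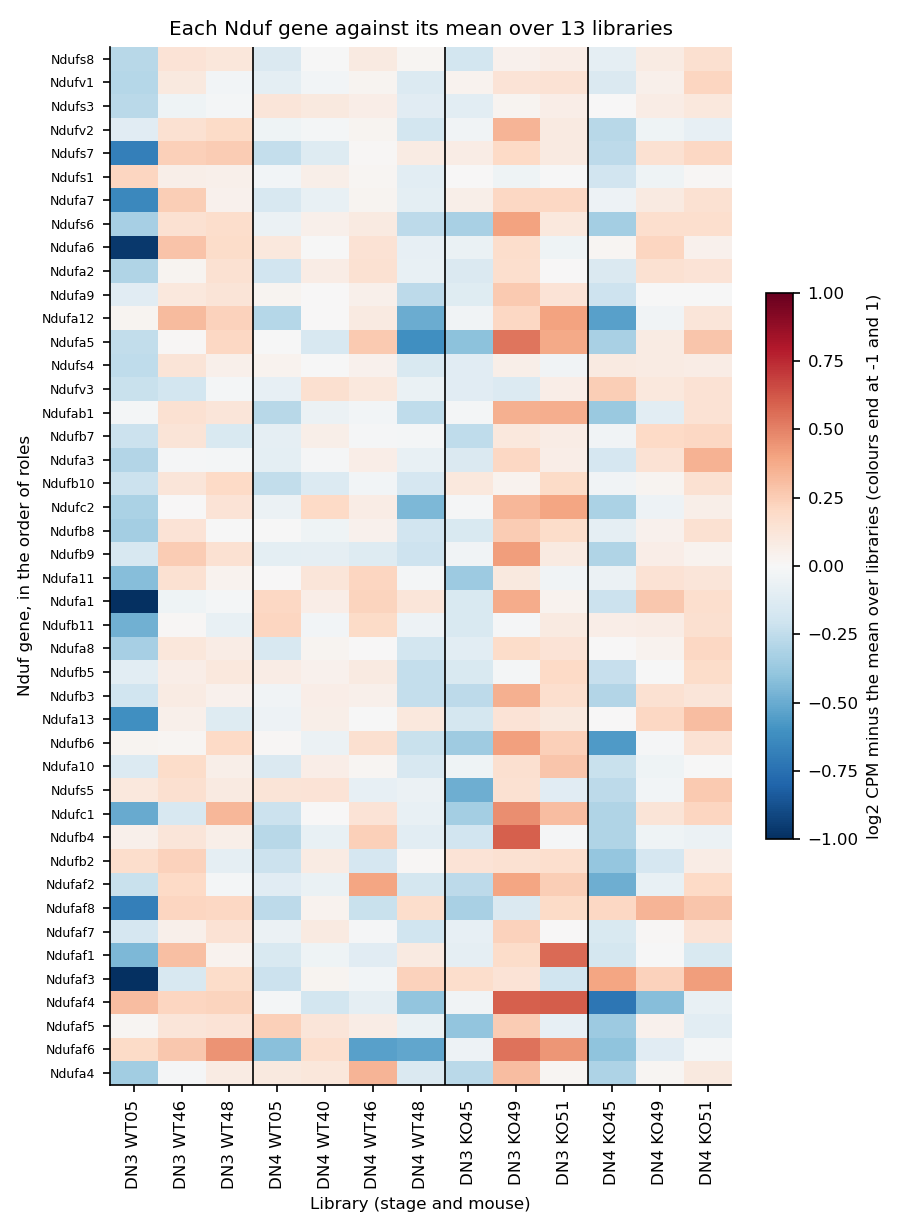
Log2 CPM of Nduf genes, each minus its mean over the 13 libraries, with genes in rows in the order of roles and libraries in columns by group. Most genes are low in both libraries of WT05 and of KO45 and in the DN4 library of WT48, least so in the DN4 library of WT05. Ndufaf4 and Ndufaf6 are low in most DN4 libraries. Colours end at -1 and 1.

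Mice of a group differed from each other. The median deviation of the 45 genes from their means over all libraries, in log2 CPM, was -0.24 in the DN3 library of WT05 and 0.12 and 0.09 in those of WT46 and WT48. In DN4 Wt it was -0.06, 0.03, 0.05 and -0.11 in WT05, WT40, WT46 and WT48. In KO-labelled mice it was -0.12, 0.20 and 0.10 in DN3 and -0.21, 0.05 and 0.14 in DN4, so that KO45 was low in both stages. Within mice, the median log2 change from DN3 to DN4 was 0.17 in WT05, -0.06 in WT46 and -0.20 in WT48, and -0.04, -0.18 and 0.01 in KO45, KO49 and KO51. The 2 stage comparisons share no library. Over the 45 members their log2 fold changes had a Pearson correlation of 0.703 and a Spearman correlation of 0.668, and 37 had the same sign (82.2%), 28 of them lower in DN4. Over 12327 genes the correlations were 0.918 and 0.769, with 78.2% of the same sign. Without the DN3 library of WT05 the members had correlations of 0.604 and 0.606, and 32 had the same sign (71.1%). Genes are not independent replicates, so no p is given.

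Between the genotypes, no Nduf gene was called. Reads of Y-linked genes were found in Wt mice WT40 and WT46 and in no other mouse, so sex differed between the genotype groups and males were present in Wt alone. Without these mice 0 members were called in either stage, and the median log2 difference was 0.16 in DN4. The X-linked Ndufa1 and Ndufb11 then had log2 differences of -0.03 and 0.06 in DN4, with adjusted p of 0.92 or more by edgeR. In DN3 this left WT05 and WT48 as the Wt libraries, so its median of 0.15 and its difference of 0.50 for Ndufa1 rest largely on WT05, without which, with WT46 kept, they were 0.003 and 0.13. In DN4, 0 of 45 members passed by edgeR and 0 by DESeq2 or limma-voom, while 0.0535% of all 13084 genes were called by edgeR. Of the members 2 had an unadjusted p under 0.05 by edgeR, against 726 of all genes. The median log2 difference, KO-labelled minus Wt, was 0.06 over the members and -0.01 over all genes. Its 95% interval lay within 1 log2 unit of 0 for all 45 members and within 0.5 for 37. Groups did not overlap for 2 members (4.44%), against 7.08% of all genes tested.

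The members nearest to a call in DN4 were assembly factors. Ndufaf8, which works with Ndufaf5 in the modification of Ndufs7, was at 10.1, 12.5, 10.5 and 13.8 CPM in Wt and 14.1, 15.4 and 14.8 CPM in KO-labelled libraries. Its log2 difference was 0.35 (SE 0.15, unadjusted p 0.048, adjusted p 0.89, edgeR), and the groups did not overlap. Ndufaf3 was at 14.6, 17.2, 16.5 and 19.9 CPM in Wt and 22.2, 19.8 and 22.6 CPM in KO-labelled libraries, with overlap, and its log2 difference was 0.35 (SE 0.14, unadjusted p 0.034, adjusted p 0.87, edgeR). Ndufs4, an accessory subunit of the matrix arm known from mouse models of Leigh syndrome, was at 63.7, 62.0, 64.2 and 56.0 CPM in Wt and 66.3, 65.7 and 65.5 CPM in KO-labelled libraries. The gap was narrow, and the log2 difference was 0.12 (SE 0.09, adjusted p 0.92, edgeR).

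In DN3, 0 members were called by edgeR, DESeq2 or limma-voom, and 0.0% of all 12105 genes were called by edgeR. At an unadjusted p under 0.05 by edgeR were 0 members and 168 of all genes. The median log2 difference was 0.07 over the members, with 35 above 0, and -0.01 over all genes, with 5922 above 0. Without the DN3 library of WT05 it was 0.003, with 23 above 0. The 95% interval lay within 1 log2 unit of 0 for all 45 and within 0.5 for 24. Groups did not overlap for 1 member (2.22%), against 6.44% of all genes tested.

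In the interaction, fitted over all 13 libraries, 0 members and 0.0% of 13361 genes were called by edgeR. At an unadjusted p under 0.05 by edgeR were 0 members and 480 of all genes. The median difference of the log2 changes, KO-labelled minus Wt, was -0.06, and 0.08 without the DN3 library of WT05. For Ndufa1 and Ndufaf8 the 95% interval reached beyond 1 log2 unit.

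**Figure D4:**
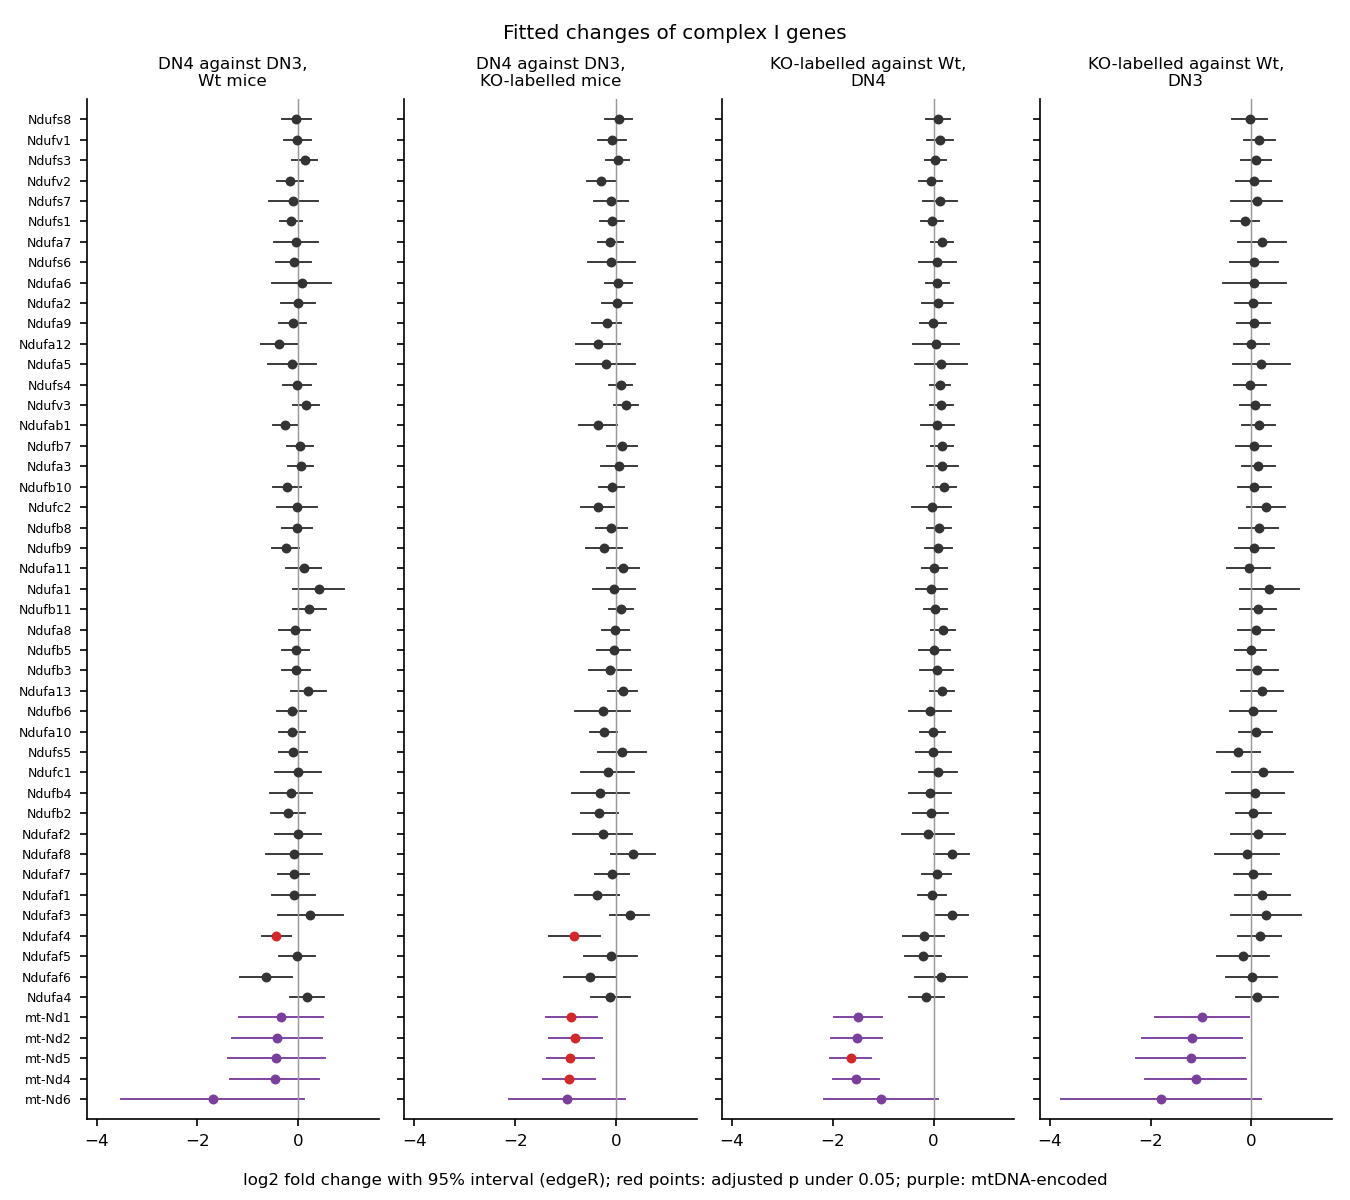
Log2 fold change with its 95% interval by edgeR for Nduf genes and 5 mt-Nd genes (purple) in the 4 comparisons, with red points for an adjusted p under 0.05. The fitted changes of the Nduf genes lie within 1 log2 unit of 0, with Ndufaf4 called in both stage panels, while every mt-Nd gene lies to the left of 0 with all libraries included. The intervals of all 5 cross 0 in the Wt stage panel, and that of mt-Nd6 does so in each panel.

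The transcripts of the mtDNA-encoded genes are copied from mtDNA by its own polymerase and not from the nuclear promoters above. Of the 7 mt-Nd genes 5 could be tested. The others, mt-Nd3 and mt-Nd4l, had at most 3 and 4 counts in a library and share 98.0% and 98.8% of their stretches of 50 bases with the nuclear copies Gm28438 and Gm10222. Of mt-Nd4, 62.2% is shared in the same way, so its level is a lower limit if shared reads were dropped. The level of mt-Nd1 over all libraries was 1605 CPM per kb.

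Among the mt-Nd genes, mt-Nd5, a proton-pumping subunit at the far end of the membrane arm, was at 1577, 1458, 1633 and 1139 CPM in DN4 Wt and 378, 454 and 539 CPM in DN4 KO-labelled libraries. In DN3 it was at 3623, 1178 and 993 CPM in Wt and 752, 688 and 1089 CPM in KO-labelled libraries. The genotypes did not overlap in DN4 and overlapped in DN3. The log2 difference in DN4 was -1.65 (SE 0.18, adjusted p 0.034, edgeR). It was called without WT48 and not without any other of the 7 libraries, with adjusted p up to 0.29, and the log2 difference stayed between -1.76 and -1.53. Without the mice WT40 and WT46, which had Y-linked reads, it was -1.53 and was not called (adjusted p 0.27, edgeR).

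The other 4 were not called in DN4 by edgeR. mt-Nd1, next to the ubiquinone site, was at 1969.5, 2139, 1929.7 and 1434 CPM in Wt and 509, 616 and 831 CPM in KO-labelled DN4 libraries, a log2 difference of -1.50 (SE 0.21, adjusted p 0.12, edgeR). In DN3 it was at 4010.1, 1506 and 1454 CPM in Wt and 1060.4, 1005 and 1498 CPM in KO-labelled libraries. It was thus lower in each KO-labelled DN4 library than in every Wt one.

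mt-Nd2, a membrane-arm pump subunit, was at 1233, 1205, 1197 and 792 CPM in DN4 Wt, 294, 368 and 473 in DN4 KO-labelled, 2599, 991 and 796 in DN3 Wt and 614, 505 and 836 in DN3 KO-labelled libraries. mt-Nd4, another, was at 876, 824, 928 and 659 CPM in DN4 Wt, 216, 271 and 354 in DN4 KO-labelled, 2021, 749 and 589 in DN3 Wt and 472, 429.6 and 669 in DN3 KO-labelled libraries. Their log2 differences in DN4 were -1.53 (SE 0.22, adjusted p 0.13, edgeR) and -1.53 (SE 0.20, adjusted p 0.078, edgeR). By DESeq2 the adjusted p of mt-Nd1, mt-Nd2, mt-Nd4 and mt-Nd5 was 1.76e-10, 6.69e-10, 5.14e-12 and 3.51e-17. In that DESeq2 fit 50 of 12573 genes were called.

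mt-Nd6, the subunit encoded on the other strand of mtDNA, varied most. It was at 56.1, 50.3, 38.0 and 21.6 CPM in DN4 Wt, 9.01, 14.5 and 36.1 in DN4 KO-labelled, 336, 42.0 and 25.4 in DN3 Wt and 24.0, 35.2 and 55.8 in DN3 KO-labelled libraries. The groups overlapped in each genotype comparison, and the log2 difference in DN4 was -1.05 (SE 0.49, adjusted p 0.89, edgeR). The median log2 difference between the genotypes over the 5 genes was -1.53 in DN4 and -1.18 in DN3. In DN3, 0 were called by edgeR and 4 had an unadjusted p under 0.05, against 168 of all 12105 genes. Without the DN3 library of WT05 the DN3 median was -0.35, with 0 at an unadjusted p under 0.05.

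By stage, 4 of the 5 mt-Nd genes were called lower in DN4 of KO-labelled mice, against 7.34% of all genes tested, with log2 changes of -0.89 (SE 0.22) for mt-Nd1, -0.81 (SE 0.23) for mt-Nd2, -0.92 (SE 0.22) for mt-Nd4 and -0.91 (SE 0.20) for mt-Nd5. Their adjusted p were 0.028, 0.045, 0.025 and 0.019 by edgeR. mt-Nd6 had -0.98 (SE 0.50, adjusted p 0.22) and passed with the replicate block (adjusted p 0.0011). mt-Nd5 passed without each library in turn. mt-Nd1 and mt-Nd4 did not pass without KO51 in DN3 or KO45 or KO49 in DN4 (adjusted p up to 0.077), nor did mt-Nd2, which also failed without KO45 in DN3 (up to 0.12). In Wt mice 0 of the 5 were called by edgeR, at a median log2 change of -0.44 with all libraries and 0.27 without the DN3 library of WT05. In the interaction 0 of the 5 were called. Its median over the 5 was -0.46, with 0 at an unadjusted p under 0.05 by edgeR. Without the DN3 library of WT05 the median was -1.18, with all 5 below 0. Of these, 4 were at an unadjusted p under 0.05, against 506 of 13732 genes, and 0 were called by edgeR.

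The number of mt-Nd counts per Nduf count put both genomes side by side. It was 5.37, 1.52 and 1.33 in DN3 Wt and 2.16, 2.04, 1.99 and 1.61 in DN4 Wt. In KO-labelled mice it was 1.15, 0.852 and 1.38 in DN3 and 0.570, 0.606 and 0.748 in DN4. The mean was 1.95 ± 0.238 (SD, n = 4) in DN4 Wt and 0.641 ± 0.0941 (SD, n = 3) in DN4 KO-labelled libraries, without overlap. From DN3 to DN4 the ratio was lower in each of the 3 KO-labelled mice and in WT05, and higher in WT46 and WT48. The share of all counts on Nduf genes was 0.252 to 0.329% outside the DN3 library of WT05 and 0.135% in it, or 0.206% of its counts outside rRNA-like genes.

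**Figure D5:**
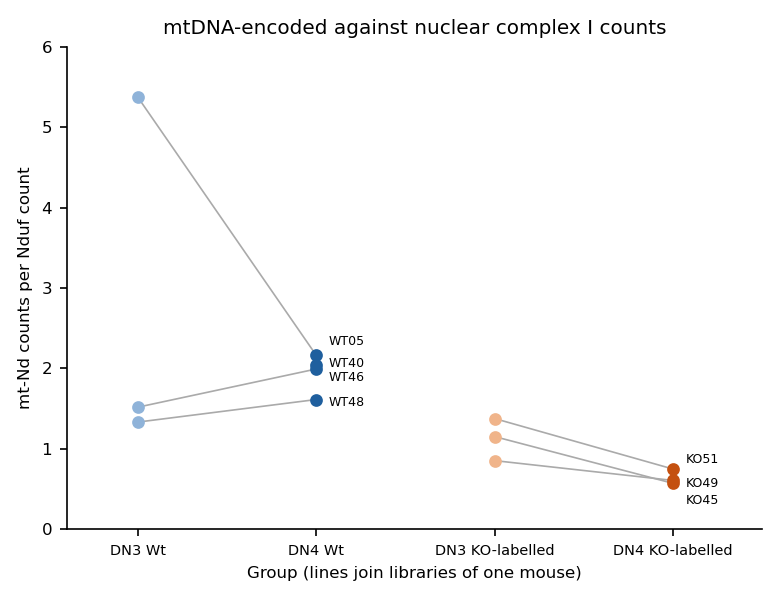
Counts on the 7 mt-Nd genes per count on the 46 Nduf genes in each library. A line joins both stages of each mouse. The DN4 KO-labelled libraries lie between 0.570 and 0.748 and the DN4 Wt libraries between 1.61 and 2.16.

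Assembly factors with other names were taken as a list of 13, all tested. In Wt mice 1 was called lower in DN4, against 9.43% of all genes, namely Chchd4, which imports and folds proteins of the intermembrane space. It was at 35.7, 38.5 and 47.3 CPM in DN3 Wt and 29.8, 29.6, 26.8 and 25 in DN4 Wt, and its log2 change was -0.57 (SE 0.14, adjusted p 0.019, edgeR). Without WT46 or WT48 in DN3 its adjusted p was 0.051 or 0.083. In KO-labelled mice 1 was called lower, against 7.34% of all genes, namely Tmem70, known for the assembly of ATP synthase and of complex I. It was at 42.7, 50.1 and 45 CPM in DN3 and 30.2, 32.2 and 35.8 in DN4, a log2 change of -0.51 (SE 0.12, adjusted p 0.025, edgeR). It failed without KO49 or KO51 in DN3 or KO45 or KO49 in DN4 (adjusted p 0.063 to 0.083). With the replicate block 3 of the 13 were called lower in KO-labelled mice, Chchd4, Tmem70 and Tmem186, and 1 higher, Dmac2. The shares of all genes were 16.9% and 18.9%. In Wt mice, where that fit lacked WT40, 0 of the 13 were called. Without the DN3 library of WT05, 3 were called lower in Wt mice, against 11.4% of all genes. Between the genotypes 0 of the 13 were called in either stage.

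The nuclear genes of complexes II (4 genes), III (9) and V (17) gave 0 calls in each of the 4 comparisons by edgeR. Their median log2 changes from DN3 to DN4 were -0.04, -0.05 and -0.03 in Wt and -0.17, -0.13 and -0.12 in KO-labelled mice. Without the DN3 library of WT05 they were -0.17, -0.17 and -0.15 in Wt mice, and that of the mitochondrial ribosome was -0.24. Those of the Nduf genes were -0.04 and -0.09, and -0.16 in Wt mice without that library. Of 77 tested genes of the mitochondrial ribosome, 3 were called lower in DN4 of Wt mice and 0 in KO-labelled mice, against 9.43% and 7.34% of all genes, at medians of -0.15 and -0.16. The count was 13 in Wt mice without the DN3 library of WT05, against 11.4% of all genes, and 15 in KO-labelled mice with the replicate block, against 16.9%, where 1 gene of complex II and 3 of complex V were also called lower. Without that library 1 gene each of complexes III and V was called lower in Wt mice.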

How the data were processed

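The authors trimmed reads of stranded mRNA libraries, mapped them with STAR on mm10 and counted them per gene with featureCounts. The deposited values are these counts, whole numbers for 47937 genes with 0 unused columns, 13 libraries and 7 mice. Versions, annotation and the strand setting are not given in the sources used here. Gene names, roles and lengths were joined from GENCODE M21 on GRCm38, where 47310 identifiers were found without version and 39192 with it.

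Each comparison was fitted over all genes on its own groups with edgeR 4.0.16 (R 4.3.3): filterByExpr with a minimum count of 10, TMM scaling, quasi-likelihood test, Benjamini-Hochberg adjustment, threshold 0.05. The interaction used all 13 libraries. SE is the size of the log2 fold change over the square root of F, and intervals are at 95%. CPM uses TMM-scaled totals, and levels per kb use the longest principal transcript. Replicates were read as mice from the numbers in their labels. Libraries held 5926848 to 14148661 counts, and the lowest count of a tested member in a library was 25. The limit for a count of 0 is 3 counts and covers counting error only. The pipeline was tested on simulated counts with planted changes larger than those fitted for the Nduf genes, so its power for small changes was not tested. No pair of libraries of a group was a duplicate (chi-squared per gene at least 5.83).

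Mouse numbers were taken to pair the stages, since the same numbers occur with both stages in the labels. That a number names an animal was read from the labels, which do not state it. Fits with the mouse as a replicate block used mice with both stages, so WT40 was left out of them. Over 13361 genes, deviations of the DN3 and DN4 library of a mouse correlated at 0.460, 0.213 and 0.331 (KO45, KO49, KO51) and 0.145, 0.124 and 0.182 (WT05, WT46, WT48). Libraries of unlike numbers were not correlated, so these values do not check the pairing. Alternatives were DESeq2's size factors, library totals, TMM without mtDNA-encoded genes, removal of rRNA-like genes, no filter, at least 10 counts in every library, DESeq2 1.42.0, limma-voom (limma 3.58.1), all libraries in one fit, the mouse as a replicate block, leaving out each library, and leaving out the Wt mice with counts on Y-linked genes.

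Named are the nuclear core subunits, called members whose groups do not overlap, members with no counts, X-linked members and mt-Nd genes. Members near a threshold, those with the largest fitted change, those far off in the DN3 library of WT05, those called only in another fit, and those at an end of the levels were named after their values were seen. The members and lists were chosen with earlier results of these data known. RefSeq promoters came from GRCm38.p6, and motifs were searched as letters on both strands. The values of 1 core subunit are not reported here, and it is left out of the plots of single genes.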

Additional observations from a re-analysis of the deposited data

Results flagged for a closer look

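In the 4 DN4 Wt libraries, 53 values (50 genes, the shares of counts on Nduf and on mt-Nd genes, and their ratio) were searched for a library far from the rest, and 5 were found. Chance alone gives about 1 in 20. The mtDNA-encoded mt-Nd2 was at 792 CPM in WT48 and at 1197 to 1233 in the other libraries, and mt-Nd genes together took 0.407% of the counts of WT48 and 0.568 to 0.595% elsewhere. Ndufb5, of the membrane arm, was at 69.8 CPM in WT48 and 84.8 to 87.7 elsewhere. Ndufaf6 was at 11.8 CPM in WT40 and 7.17 to 7.82 elsewhere, and Ndufaf2, whose antisense neighbour shares much of its sequence, at 16.1 CPM in WT46 and 10.8 to 11.7 elsewhere. WT48 also had the highest summed B-cell markers (5761 CPM, against a lowest of 1147) and gamma delta T-cell markers (1353 CPM, against a lowest of 609.9) of the DN4 Wt libraries, and the part of this in its values was not tested.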

How the results depend on the processing

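The count of Nduf genes called lower from DN3 to DN4 in Wt mice, 1 as reported, was 0 with library totals, no filter or all libraries in one fit, 2 with limma-voom, and 0 to 2 without each library in turn. In KO-labelled mice it was 7 with the replicate block and 0 to 1 without each library. The counts called higher, and those between the genotypes and in the interaction, were 0 under every alternative run. With the replicate block, a fit without WT40, Ndufaf4 in Wt mice was no longer called (log2 change -0.44, adjusted p 0.10, edgeR). Leaving out any single library without the block also ended this call, so the part of the block was not shown. In the interaction with the block 0 members were called as before. The median log2 difference of Nduf genes between the genotypes in DN3 was 0.29 with library totals, which moved the median of all genes to 0.23, and from DN3 to DN4 in Wt it was 0.11 with the median of all genes at 0.16. With library totals Ndufs1 in DN3 turned to 0.14. Without each library in turn, the median log2 change of mt-Nd genes from DN3 to DN4 in Wt ran from -0.75 to 0.27, and their difference between the genotypes in DN3 from -1.47 to -0.35, 0.27 and -0.35 being the values without the DN3 library of WT05. Without mt-Nd4 and mt-Nd5 the ratio of mt-Nd to Nduf counts was 0.652 in DN3 KO-labelled, 0.376 in DN4 KO-labelled and 1.11 in DN4 Wt libraries, since fewer genes are counted. Of 324 values under alternatives, 303 kept their side or stayed within the spread between mice. Where no reason is stated, the cause was not tested. With 3 or 4 mice a group, the 95% intervals of the members reached, in the median, 0.30 to 0.45 log2 units to either side.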
